A study of Mus musculus with 12 samples.

Results

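The spleens of proteoglycan (PG)-immunized mice of the BALB/cJ and BALB/cByJ colonies, sublines of the BALB/c strain kept at The Jackson Laboratory, were compared by whole-genome gene expression. The comparison used the 3 immunized BALB/cByJ and 3 immunized BALB/cJ arrays, 6 of the 12 arrays of the series, each hybridized with RNA of a separate animal. All 45037 probe sets of the array that are not controls, of 45101 in all, were compared, and every difference is given as BALB/cByJ minus BALB/cJ on the log2 scale. The immunized females of both colonies had received a single intraperitoneal injection of an emulsion of human cartilage PG (100 μg of protein according to the labels; the methods of the colony study give a lower dose) and 2 mg of the adjuvant dimethyldioctadecylammonium (DDA), and spleens were taken 12 days later, before arthritis. The naïve females of both colonies, 3 arrays each, were left untreated and serve here to show whether a difference was also present without immunization, and they enter the estimate of the spread. No mouse received the adjuvant alone, and RNA came from 50 mg pieces of whole spleen, so that fewer cells of a type and less RNA per cell cannot be told apart. The question is which genes distinguish the spleens of the 2 colonies, which differ in their susceptibility to PG-induced arthritis, during the initial immune response.

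Colonies of 1 inbred strain that have been bred apart collect fixed genetic differences, and such a difference can show in the transcripts of every animal, immunized or not. An immune response adds transient differences: about this time after an injection of antigen, B cells that recognize it divide in germinal centers of the spleen, where activation-induced changes of their antibody genes and selection by T cells take place. Both kinds of difference can be present in the same arrays, and the naïve arrays come from other animals.

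The deposited values are relative to the median of the 12 arrays for each probe set, so a value of 1 is 2-fold above that median and the level of a transcript is not known. For this reason transcripts cannot be ranked by abundance, and whether markers of the spleen were present at all could not be checked. Differences were tested with limma in 1 fit of the 12 arrays, and those with an adjusted p (Benjamini-Hochberg) under 0.05 are referred to as called. The standard error (SE) of each difference comes from the same fit. Values of the 3 replicates are given in the order of their numbers. The number of arrays limits the precision.

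Some arrays stood apart. The melanin enzyme gene Dct was at 4.72 in immunized BALB/cByJ replicate 2 and 5.69 in immunized BALB/cJ replicate 1, whereas no other immunized array exceeded -0.08. In immunized BALB/cJ replicate 1 the adipose hormone gene Adipoq was also high, at 2.81, and the median of 15 T cell genes was -0.369. Immunized BALB/cJ replicate 3 had the lowest erythroid genes, with a median of -1.038 over 19 genes, against -0.178 to 0.508 in the other immunized arrays. It also had the highest value of the heat shock gene Hspa1b, at 3.29, with 1.96 in immunized BALB/cByJ replicate 3 and 1.80 in immunized BALB/cJ replicate 2. The sample numbers of the labels put BALB/cByJ replicates 1 and 2 and BALB/cJ replicate 1 in an early run (29 to 33). The other 3 immunized arrays fell in a late one (48 to 50), and the runs are not stated to be batches. The naïve arrays were numbered 10 to 12 in BALB/cByJ and 13 to 15 in BALB/cJ mice, so colony and sample order cannot be told apart there.

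Few transcripts separated the immunized colonies. Of the 45037 probe sets 54 were called (0.12%), 34 higher (0.0755%) and 20 lower (0.0444%) in BALB/cByJ mice. The difference exceeded 2-fold for 28 of the 54, with 16 of these higher and 12 lower. They represent 30 genes by the 43 probe sets that name 1 gene (0.165% of 18193 genes), of which 17 were higher (0.0934%) and 13 lower (0.0715%), while 7 probe sets name several genes and 4 none. The arrays of the colonies did not overlap in any of the 54, which were chosen on these arrays. Over all probe sets, 3666 (8.14%) were higher and 3097 (6.88%) lower in BALB/cByJ mice without overlap of the arrays, and 3564 (7.91%) had an unadjusted p under 0.05. The median difference over all probe sets was -0.007.

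Most of the called differences were also present in the naïve mice. Of the 54 probe sets, 44 were called with the same sign in a fit on the 6 naïve arrays alone, in which 2.8% of all probe sets were called. In the fit over 12 arrays the number was 46, against 4.39% of all probe sets, with 26 higher and 20 lower in BALB/cByJ mice. The number was 24 with the mean of the erythroid genes as a covariate, a list whose median differed by 1.51 between the naïve colonies. The 46 were selected by calls of the same sign in both states, so some agreement is built in. Their differences in the 2 states lay a median of 0.131 and at most 0.787 apart. The size was larger in immunized mice for 24 and in naïve mice for 22. The remaining 8 probe sets, all higher in immunized BALB/cByJ mice, were not called between the naïve colonies, where their differences ranged from -0.27 to 0.48. Even so, the naïve arrays of 5 of the 8 did not overlap, with BALB/cByJ lower in 3 (Neil1, Cep55 and S1pr2) and higher in 2. A test of whether the colony difference itself changed between the states called no probe set (0.0%), although 3414 had an unadjusted p under 0.05 (7.58%). The count was 6 with the run of sample numbers as a block, 2 after quantile normalization and 10 without immunized BALB/cJ replicate 1. Among the 54, which were chosen on the immunized arrays, 12 had an unadjusted p of this test under 0.05. The lowest adjusted p of this test among the 54 was 0.198.

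**Figure D1:**
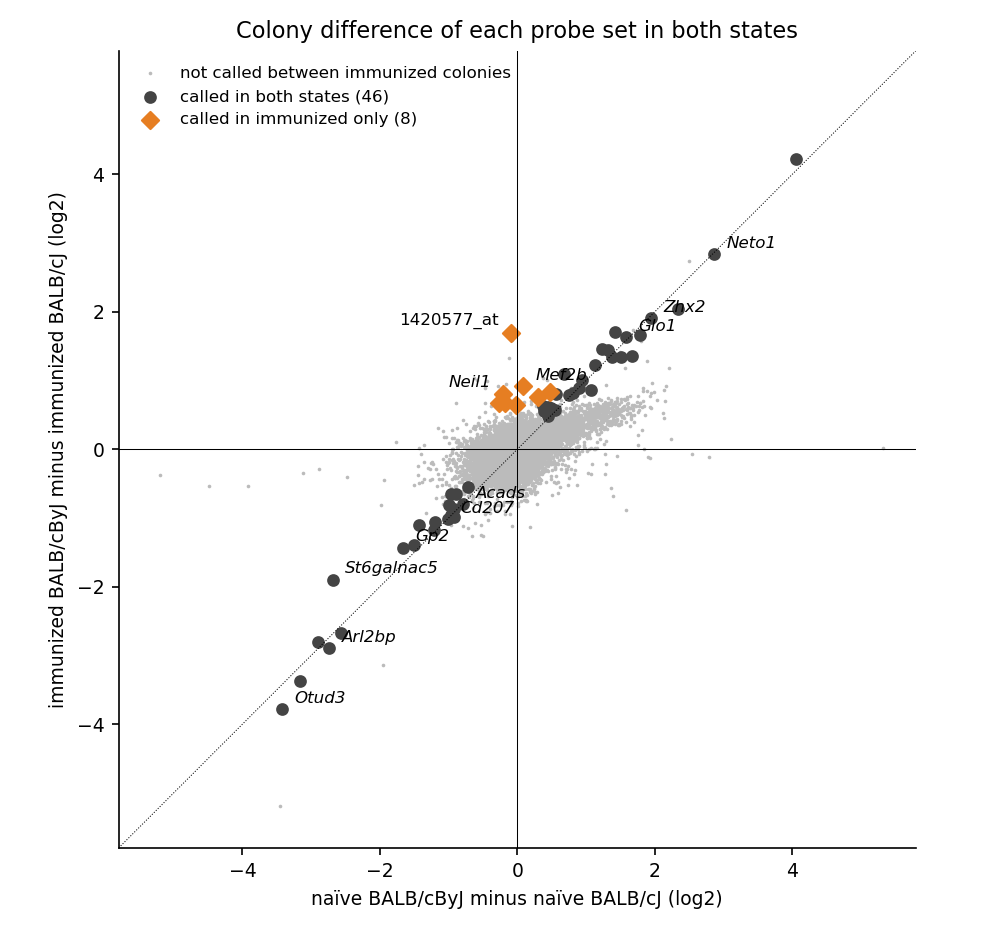
Difference between the colonies in naïve mice (horizontal axis, log2) and in immunized mice (vertical axis, log2) for each probe set; the dotted line marks equal differences. The 46 probe sets called in both states (dark circles) lie along the dotted line, and the 8 called in immunized mice only (orange diamonds) lie above 0 on the vertical axis with naïve differences between -0.27 and 0.48.

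Of the 8 probe sets called between the immunized colonies only, 3 belong to genes of the germinal center B cell list, which was written with earlier results of these data known. The promoters of Neil1, Mef2b, S1pr2, Cilp and Cep55 are shown, genes that were called between immunized and not between naïve spleens. Bex6 was called likewise, but its promoter is not shown, nor is that of a further start of Cep55. A change of the difference with immunization was not called for any of the genes shown (adjusted p from 0.198 to 0.484 from limma). The sequences span 250 bases before to 50 after the start of the gene in RefSeq (GRCm38.p6, the C57BL/6J reference, not read from these mice), 5′ to 3′ on the strand of the gene. Capitals mark matches on either strand to the octamer ATGCAAAT, the E-boxes CAGGTG and CAGCTG, the CCAAT box and TTTGAA, an element of cell cycle promoters.
Neil1 (chr9:57148256-57148555, minus strand): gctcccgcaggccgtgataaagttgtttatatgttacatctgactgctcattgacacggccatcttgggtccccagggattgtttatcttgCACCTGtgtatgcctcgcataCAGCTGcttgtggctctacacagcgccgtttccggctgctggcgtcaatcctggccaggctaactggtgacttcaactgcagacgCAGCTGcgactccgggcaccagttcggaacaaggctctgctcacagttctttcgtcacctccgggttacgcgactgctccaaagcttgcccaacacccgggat
Mef2b (chr8:70152511-70152810, plus strand): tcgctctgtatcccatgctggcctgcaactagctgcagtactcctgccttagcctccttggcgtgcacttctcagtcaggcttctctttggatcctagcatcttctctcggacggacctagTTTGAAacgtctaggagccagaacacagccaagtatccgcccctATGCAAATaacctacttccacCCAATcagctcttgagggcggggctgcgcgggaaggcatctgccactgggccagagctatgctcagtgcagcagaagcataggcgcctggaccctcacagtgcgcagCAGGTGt
S1pr2 (chr9:20976744-20977043, minus strand): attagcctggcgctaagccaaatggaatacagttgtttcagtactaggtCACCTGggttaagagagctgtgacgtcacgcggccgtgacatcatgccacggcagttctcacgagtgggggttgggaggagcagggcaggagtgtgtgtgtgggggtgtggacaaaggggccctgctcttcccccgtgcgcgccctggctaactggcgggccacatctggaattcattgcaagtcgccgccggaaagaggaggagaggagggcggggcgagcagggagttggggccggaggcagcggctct
Cilp (chr9:65264930-65265229, plus strand): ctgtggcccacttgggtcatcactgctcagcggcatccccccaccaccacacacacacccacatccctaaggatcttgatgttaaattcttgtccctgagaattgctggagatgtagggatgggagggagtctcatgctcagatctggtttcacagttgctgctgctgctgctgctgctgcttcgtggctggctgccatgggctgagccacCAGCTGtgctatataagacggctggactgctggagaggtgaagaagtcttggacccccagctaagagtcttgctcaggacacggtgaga
Cep55 (chr19:38054734-38055033, plus strand): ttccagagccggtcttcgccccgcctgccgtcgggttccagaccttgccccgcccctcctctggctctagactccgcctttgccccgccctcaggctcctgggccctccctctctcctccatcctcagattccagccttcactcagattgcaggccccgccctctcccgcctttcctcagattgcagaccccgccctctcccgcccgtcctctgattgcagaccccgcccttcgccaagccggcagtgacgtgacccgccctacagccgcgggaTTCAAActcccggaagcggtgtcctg
The octamer, which is bound by OCT proteins in B cells, was present in the promoter of Mef2b alone of these 5, and in 1.74% of 32851 promoters of the same length. CAGGTG, a site of E proteins, was present in those of Neil1, Mef2b and S1pr2 and in 20.2% of all promoters. CAGCTG was found in those of Neil1 and Cilp (16.3% of all), CCAAT in that of Mef2b (37.4% of all) and TTTGAA in those of Mef2b and Cep55 (17.9% of all). These matches describe the letters only.

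Genes lower in immunized BALB/cByJ mice were led by Otud3, Arl2bp and class I genes of the Qa region. Otud3, a deubiquitinating enzyme, was at -2.09, -1.80 and -2.59 in BALB/cByJ and at 1.54, 1.66 and 1.66 in BALB/cJ mice. The groups lay 3.34 apart at their closest arrays, and the difference was -3.78 (SE 0.186, adjusted p = 4.49e-07 from limma), 13.8-fold. Its other probe set differed by -0.35 and was not called. Arl2bp, whose product binds the small GTPase ARL2, was at -1.70, -1.54 and -1.76 in BALB/cByJ and at 1.23, 1.26 and 1.19 in BALB/cJ mice. Its difference was -2.90 (SE 0.0799, adjusted p = 2.17e-09), 7.44-fold, and its second probe set gave -2.80, so both probe sets of the gene moved together. In naïve mice the differences of Arl2bp were -2.74 and -2.90.

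Class I molecules of the Qa region are nonclassical histocompatibility antigens, and BALB/cBy mice are known to lack the Qa-2 antigen that BALB/cJ mice carry. A probe set shared by H2-Q6, H2-Q8 and H2-Q4 was at -1.39, -2.19 and -1.80 in BALB/cByJ and at 1.68, 1.21 and 1.86 in BALB/cJ mice. The difference was -3.38 (SE 0.236, adjusted p = 1.43e-05), 10.4-fold. A second one, shared by H2-Q6 and H2-Q8, differed by -2.67 (adjusted p = 7.89e-06). Which of these near-identical genes gave the signal cannot be told apart. H2-Q5 was lower by 1 of its 2 probe sets, at -0.98 (SE 0.106, adjusted p = 0.00103), and the other differed by -0.01. The probe set shared by H2-Q9 and H2-Q7 differed by -0.07, H2-Q2 by 0.17 and H2-Q10 by -0.04, and none of these was called. Of 14 genes of other class I molecules and of antigen processing none was called, and their median difference was -0.07. By the mean of their probe sets, 5 of the 14 did not overlap with BALB/cByJ lower, against 6.69% of all genes, and none with BALB/cByJ higher.

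Other called genes have varied roles. Acads, the short-chain acyl-CoA dehydrogenase of mitochondrial fatty acid oxidation, in which BALB/cByJ mice are known to carry a deletion, was at -0.34, -0.33 and -0.38 in BALB/cByJ and at 0.42, 0.50 and 0.43 in BALB/cJ mice. The difference was -0.80 (SE 0.0649, adjusted p = 6.25e-05), 1.74-fold. It was the only one called of 21 measured fatty acid oxidation genes, whose median was 0.007. St6galnac5, which adds sialic acid to glycolipids, was at -0.58, -0.98 and -1.05 in BALB/cByJ and at 1.44, 0.58 and 1.07 in BALB/cJ mice, a difference of -1.90 (SE 0.239, adjusted p = 0.0037). A second probe set gave -1.10, and its remaining probe set, at -0.76, missed the threshold with an adjusted p of 0.0518. Neu3, a sialidase that removes sialic acid from gangliosides, was higher, at 0.56 (SE 0.0896, adjusted p = 0.0303). The other 21 of 23 measured sialyltransferase and sialidase genes were not called, and the median of the list was 0.027. Gp2, a membrane glycoprotein that binds bacteria on antigen-sampling epithelial cells, was at -0.47, -0.97 and -1.17 in BALB/cByJ and at 0.60, 0.47 and 0.62 in BALB/cJ mice, a difference of -1.43 (adjusted p = 0.00111). Golm2, a Golgi membrane protein, was lower at -1.39 by 1 of its 2 probe sets, and the other differed by 0.04.

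Among the other lower genes were Rtf2, a factor of stalled replication forks, at -0.96, -0.86 and -0.81 by its 3 probe sets, and Tfe3, a transcription factor of lysosomal genes, at -0.55. Klhl25, an adaptor of a ubiquitin ligase, was lower at -1.17 by 1 probe set, whereas the other differed by 0.28 in the opposite direction and was not called. The arrays of that other probe set did not overlap, and between the naïve colonies it was called higher (0.51, adjusted p = 0.0199 from limma). Tmem181a was lower at -0.64, and a probe set it shares with related sequences at -0.65. A530047J11Rik differed by -1.06 (adjusted p = 0.0343). Langerin (Cd207), a lectin of Langerhans cells and some CD8+ dendritic cells, was at -0.38, -0.52 and -0.61 in BALB/cByJ and at 0.38, 0.45 and 0.73 in BALB/cJ mice. Its difference was -1.02 (SE 0.106, adjusted p = 0.000782), with -1.01 in naïve mice. It was the only one called of 16 measured dendritic cell genes, whose median was -0.057. Of the other 15, 6 had differences above 0, of which Siglech, a receptor of plasmacytoid dendritic cells, was the highest at 0.15 (adjusted p = 0.806). Xcr1, a chemokine receptor of cross-presenting dendritic cells, differed by -0.62 (adjusted p = 0.444) and the integrin gene Itgae by -0.46 (adjusted p = 0.495), both with non-overlapping arrays. By the mean of their probe sets, 3 genes of the list did not overlap with BALB/cByJ lower, against 6.69% of all genes.

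Higher in immunized BALB/cByJ mice was, above all, an unnamed probe set. It was at 2.17, 2.07 and 2.10 in BALB/cByJ and at -1.98, -2.18 and -2.18 in BALB/cJ mice, a difference of 4.23 (SE 0.156, adjusted p = 2.66e-08), 18.8-fold. Neto1, an auxiliary subunit of glutamate receptors in neurons, was at 1.37, 1.38 and 1.31 in BALB/cByJ and at -1.35, -1.48 and -1.61 in BALB/cJ mice. The 3 probe sets of Neto1 gave 2.84, 2.04 and 0.86, all called. Zhx2, a repressor of fetal liver genes that is known to be poorly expressed in BALB/cJ mice, was at 0.97, 0.84 and 0.89 in BALB/cByJ and at -0.84, -0.96 and -1.21 in BALB/cJ mice. The difference was 1.91 (SE 0.102, adjusted p = 9.41e-07), 3.75-fold, and the other 7 measured genes of the list of ZHX proteins and their known liver targets were not called (median of the 8 genes 0.017). A probe set shared by the paired immunoglobulin-like receptor genes Pirb, Pira2 and Pira1, which bind class I molecules on B cells and myeloid cells, was at 0.89, 0.64 and 0.65 in BALB/cByJ and at -0.90, -1.01 and -0.90 in BALB/cJ mice, a difference of 1.66 (adjusted p = 0.00115). A second probe set of the same 3 genes differed by 0.42 (adjusted p = 0.496), a probe set shared with further genes by 0.30, and the one that names Pirb alone by -0.03; none of these was called. A probe set shared by Serpina1d and Serpina1a, which encode forms of the protease inhibitor α1-antitrypsin, was higher at 1.46 (adjusted p = 0.00353), whereas Serpina1b and Serpina1c, with near-identical sequences, were not called. Ap3s2, a subunit of an adaptor complex of lysosomal sorting, was higher at 0.82 by 1 of its 6 probe sets. Higher too were a pair of unnamed probe sets, at 1.45 and 1.00, and 1 shared by Gm3435 and 9030025P20Rik, at 1.23.

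Glo1, the enzyme that detoxifies methylglyoxal, was higher by all 4 of its probe sets, at 1.35, 1.63, 1.34 and 1.36. By the first of these the values were 0.69, 0.69 and 0.69 in BALB/cByJ and -0.66, -0.63 and -0.68 in BALB/cJ mice, so that arrays of a colony differed from each other by far less than the colonies did. The next genes in chromosomal order were higher too: 1700097N02Rik at 1.71 and 0.89 by 2 of its 3 probe sets, and Dnah8, a dynein heavy chain of cilia, at 1.09 by 1 of 2. Glp1r, the gene after Dnah8, differed by -0.05, and Btbd9, the gene before Glo1, by 0.17 (adjusted p = 0.586). A duplication that holds Glo1 and part of Dnah8 is known in some laboratory strains; copy number was not measured here. Surf4, a cargo receptor of the endoplasmic reticulum, and its neighbor Rexo4, a member of an exonuclease family, were both higher. The values of Surf4 were 0.40, 0.34 and 0.37 in BALB/cByJ and -0.21, -0.30 and -0.26 in BALB/cJ mice, a difference of 0.63 (SE 0.0664, adjusted p = 0.000854), and those of Rexo4 gave 0.81 (SE 0.0836, adjusted p = 0.000723). The genes on either side of this pair, Surf2 and Cacfd1, differed by -0.14 and 0.11. Rttn, a centriole protein, was higher at 0.48 by 1 probe set, and its others, at 0.37 and 0.16, were not called. The gene lies 3 genes from Neto1, with Cbln2 (-0.08) and Socs6 (-0.34) between them.

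Of the 29 called genes that could be placed in gene order, 7 thus had another called gene within 3 genes, whereas 158 of 18142 genes (0.871%) had a called gene that near. Other called genes stood between neighbors that were not called between the immunized colonies. Zhx2 lay between Slc22a22 (0.00) and Derl1 (0.09), Arl2bp between Rspry1 (-0.09) and Pllp (-0.02), and Otud3 between Pla2g2e (-0.39, adjusted p = 0.592) and Rnf186 (-0.02). Beside Acads, Sppl3, an intramembrane protease, differed in the opposite direction, by 0.60 (adjusted p = 0.131), without overlap of the arrays. Between the naïve colonies Sppl3 (0.71, adjusted p = 0.00979 from limma) and Pla2g2e (-0.63, adjusted p = 0.0487) were called. Tfpt, a subunit of a chromatin remodeler, was higher at 0.57 by 1 probe set, whereas its others, at 0.30, 0.02 and -0.01, were not called. Near Tfpt, Ndufa3 and Cnot3 differed by 0.32 and 0.38 and were not called. In all, 26 of 151 uncalled neighbors (17.2%) had an unadjusted p under 0.05 by their probe set of smallest p, against 13.5% of all uncalled genes.

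**Figure D2:**
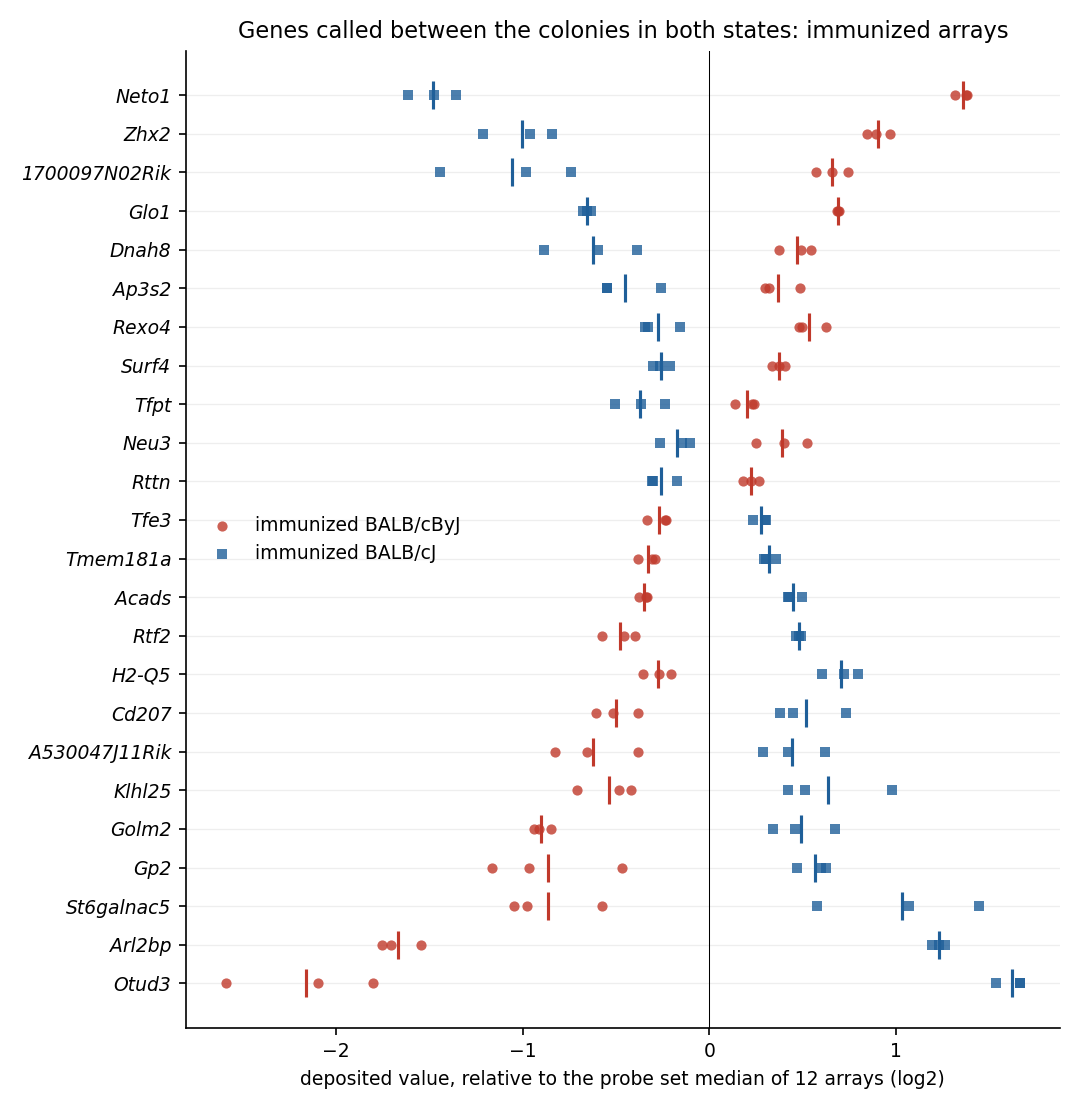
Values of the 3 immunized BALB/cByJ (red circles) and 3 immunized BALB/cJ arrays (blue squares) for the 24 single genes called in both states, relative to the median of the 12 arrays (log2), taking for each gene its probe set of smallest p; vertical ticks mark group means. The colonies do not overlap in any gene, from Neto1 (means apart by 2.84) to Otud3 (-3.78).

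The gene with the largest difference, Cyth1, was not called; it was singled out after its values were seen. Cyth1 encodes cytohesin-1, an exchange factor of ARF GTPases that acts on integrin adhesion of leukocytes. Its values were -5.34, -4.85 and -4.85 in immunized BALB/cByJ and -0.02, 0.18 and 0.36 in immunized BALB/cJ mice, a difference of -5.19 with an SE of 0.951 and an adjusted p of 0.0828. In naïve BALB/cByJ mice replicates 1 and 3 were likewise low, at -5.51 and -4.19, but replicate 2 was at 0.02, among the naïve BALB/cJ values of 0.18, 0.27 and 0.22. Without that array the adjusted p was 2.57e-06, and with the 6 immunized arrays alone it was 6.46e-06. A second probe set of Cyth1 showed the same, with a difference of -3.14 (adjusted p = 0.105, and 3.18e-05 with the 6 arrays alone). Another, shared by Cyth1 and Gm38514, ran the opposite way at 2.73 (adjusted p = 0.243, and 0.000114 with the 6 arrays alone), and there too naïve BALB/cByJ replicate 2 was at 0.20, away from the 3.89 and 2.50 of its group. In all, 26 probe sets differed by more than 2-fold without being called, 13 of them lower in BALB/cByJ mice. In 6 of the 26 the arrays overlapped, among them the 3 of Hspa1b, and Erdr1 missed the threshold at 1.42 (adjusted p = 0.0518).

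Neil1, a DNA glycosylase of base excision repair, was at 0.85, 0.65 and 0.94 in immunized BALB/cByJ and at -0.15, 0.13 and 0.03 in immunized BALB/cJ mice. All naïve values of Neil1 lay between -0.28 and 0.00. The difference was 0.81 (SE 0.0975, adjusted p = 0.00262), 1.75-fold, against -0.20 in naïve mice. Mef2b, a transcription factor of germinal center B cells, was at 0.96, 0.70 and 1.39 in BALB/cByJ and at -0.01, 0.15 and 0.16 in BALB/cJ mice, with a difference of 0.92 (SE 0.140, adjusted p = 0.0227) against 0.08 in naïve mice. S1pr2, a receptor that confines germinal center B cells to the follicle, was at 0.77, 0.66 and 1.14 in BALB/cByJ and at 0.22, 0.11 and 0.23 in BALB/cJ mice. Its difference was 0.67 (SE 0.108, adjusted p = 0.0343) against -0.18 in naïve mice, and its second probe set differed by 0.20 and was not called. In each of the 3 genes every immunized BALB/cByJ array lay above every other array of the series.

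Of 14 measured genes of the germinal center list, these 3 were called higher, against 0.0934% of all genes, and none lower. Without overlap of the arrays, 9 were higher in BALB/cByJ mice, against 8.96% of all genes. The list was written with earlier results of these data known, so these counts are not independent evidence. Of the 11 that were not called, 6 did not overlap, and their median was 0.243. The median of the whole list, the 3 called genes included, was 0.284, against -0.001 over all genes and -0.13 for the list in naïve mice. It was 0.263 and 0.332 within the early and the late run, and between 0.26 and 0.306 when any 1 immunized array was left out. The list medians were 0.259, 0.214 and 0.269 in the BALB/cByJ arrays and 0.008, 0.028 and 0.071 in the BALB/cJ arrays. Rgs13, a regulator of chemokine receptor signals in germinal center B cells, was at 2.32, 1.76 and 2.57 in BALB/cByJ and at 0.25, 1.08 and 1.32 in BALB/cJ mice, a difference of 1.33 that was not called (adjusted p = 0.286). Neither were Mybl1, a transcription factor of dividing germinal center B cells, at 0.68 (adjusted p = 0.105), and Gcsam, a signaling adaptor, at 0.41 (adjusted p = 0.248). Bcl6, the master regulator of the germinal center program, differed by -0.13 (adjusted p = 0.808) and Fas, a death receptor, by -0.01 (adjusted p = 0.989).

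The other probe sets called in immunized mice only were of varied kinds. Cilp, cartilage intermediate layer protein, was at 0.64, 0.42 and 0.70 in BALB/cByJ and at -0.03, -0.03 and -0.13 in BALB/cJ mice, a difference of 0.65 (SE 0.0828, adjusted p = 0.0041) against -0.02 in naïve mice. It was the only one called of 20 measured extracellular matrix and cartilage genes, whose median was 0.018. Cep55, which acts in the last step of cell division, was at 0.75, 0.59 and 0.92 in BALB/cByJ and at 0.09, -0.02 and 0.16 in BALB/cJ mice, a difference of 0.67 (SE 0.0926, adjusted p = 0.00844) against -0.27 in naïve mice. The second probe set of Cep55 differed by 0.49 and was not called, and in naïve mice it differed by 0.01. A probe set with no gene name was at 2.32, 1.64 and 2.69 in BALB/cByJ and at 0.12, 0.69 and 0.78 in BALB/cJ mice, the widest of the 8 at 1.69 (adjusted p = 0.0126). Bex6 was higher at 0.77 (adjusted p = 0.0343) and a probe set shared by Fam177a2 and Fam177a at 0.84 (adjusted p = 0.0279). In naïve mice these last 2 differed in the same direction, by 0.29 and 0.48.

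The calls of this group rest on the spread estimated over all 12 arrays. With the 6 immunized arrays alone, Neil1 (adjusted p = 0.051), Cilp (0.0756), Cep55 (0.104), the unnamed probe set (0.144), Mef2b (0.215) and S1pr2 (0.253) were not called, whereas Bex6 and the Fam177a probe set were. Without immunized BALB/cJ replicate 1 the adjusted p was 0.0172 for Neil1, 0.131 for Mef2b and 0.125 for S1pr2. With the mean of the erythroid genes as a covariate Mef2b and S1pr2 were not called either, whereas Neil1 was (adjusted p = 0.0106).

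**Figure D3:**
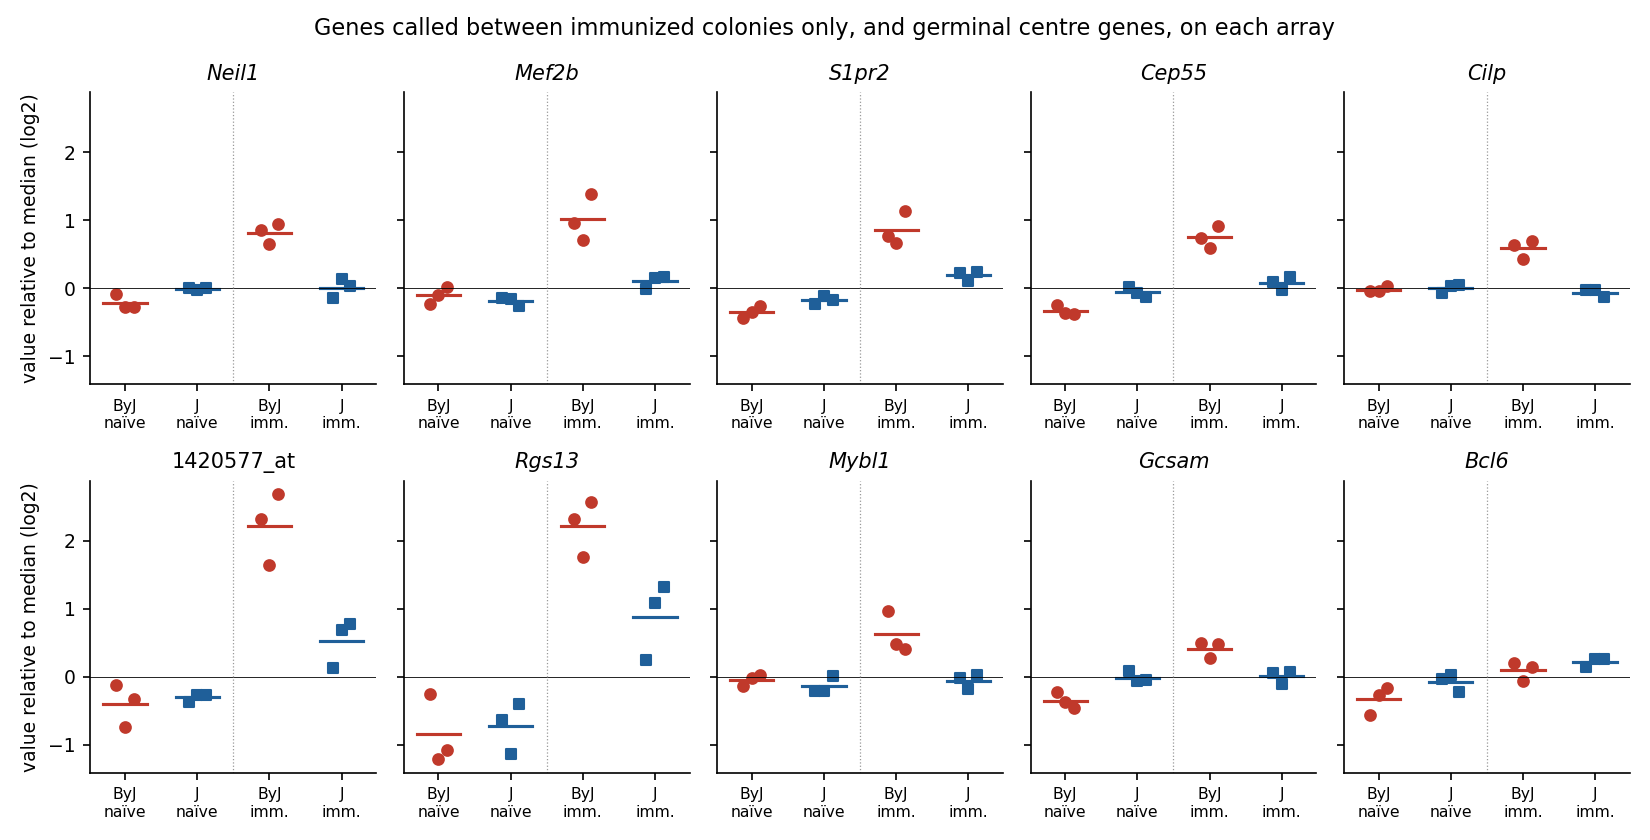
Value on each of the 12 arrays (log2, relative to the median) for 6 probe sets called between the immunized colonies only and for the germinal center genes Rgs13, Mybl1, Gcsam and Bcl6, which were not called; red circles are BALB/cByJ and blue squares BALB/cJ arrays, naïve at the left and immunized (imm.) at the right of each panel, and horizontal bars are group means. In all panels but that of Bcl6 the immunized BALB/cByJ arrays lie above the immunized BALB/cJ arrays.

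Genes of cell division had positive differences whose size depended on 1 array. Of 24 measured mitosis genes Cep55 alone was called, and 14 had non-overlapping arrays with BALB/cByJ higher (8.96% of all genes). The median was 0.428, with 0.933 in naïve mice. The 3 BALB/cByJ arrays were at 0.034, 0.141 and 0.421 and the BALB/cJ arrays at -0.110, -0.014 and -0.514. Without immunized BALB/cJ replicate 3 the median was 0.246, the lowest value on leaving out 1 array, and the highest was 0.521. Among 26 DNA replication genes none was called and 10 did not overlap, with a median of 0.293 (0.145 without immunized BALB/cJ replicate 3) and of 0.713 in naïve mice. Rad54l, a recombination factor, came closest, at 0.50 with an adjusted p that rounds to 0.05. Erythroid genes moved in the same arrays. All 19 had positive differences with a median of 0.501 (0.169 without immunized BALB/cJ replicate 3, 0.759 without replicate 2), but none was called and none had non-overlapping arrays. With the mean of the erythroid genes as a covariate, 43 of the 54 probe sets were still called. Of the 11 calls lost, 4 were among the 8 called in immunized mice only: Mef2b (adjusted p = 0.0829), S1pr2 (0.119), Bex6 (0.0589) and the Fam177a probe set (0.104).

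Genes of NK cells and cytotoxicity had negative differences that did not pass the test. Of 14 measured, none was called, 7 had non-overlapping arrays with BALB/cByJ lower (6.69% of all genes did), and the median was -0.246, with -0.298 in naïve mice. Ncr1, an activating receptor that marks NK cells, was at -0.33, -0.64 and -0.61 in BALB/cByJ and at 0.08, -0.02 and 0.12 in BALB/cJ mice, a difference of -0.59 (adjusted p = 0.376). The protease gene Gzma differed by -0.69 (adjusted p = 0.446) and the receptor gene Klrk1 by -0.44 (adjusted p = 0.446). An exception was Eomes, a transcription factor of NK and CD8+ T cells, at 0.27 (adjusted p = 0.549).

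Of the cytokines that the study assayed in supernatants of PG-stimulated spleen cultures, none was called here among the 6 genes. Those cultures were made at the end of the arthritis experiment, after repeated injections. They differ from the spleens compared here in time and stimulus. Il4, the signature cytokine of Th2 cells, was at 0.15, 0.15 and 0.63 in BALB/cByJ and at -0.12, -0.08 and -0.06 in BALB/cJ mice, so the groups did not overlap, and the difference was 0.39 (95% confidence interval 0.09 to 0.69, adjusted p = 0.537). Ifng, that of Th1 cells, overlapped between the colonies and differed by -0.43 (-0.82 to -0.04, adjusted p = 0.600). The other differences were -0.25 for Il2, 0.04 for Tnf, -0.07 for Il1b and -0.02 for Il6, with intervals that include 0. B cell genes (15 measured, median -0.091), plasma cell genes (16, -0.043), MHC class II genes (12, -0.091) and genes of T follicular helper cells and T cell activation (16, 0.024) held no call. Without overlap of the arrays, 5 MHC class II, 2 B cell and 1 plasma cell gene were lower (6.69% of all genes) and none higher. In the list of T follicular helper cells and T cell activation, 4 were higher (8.96% of all genes) and 2 lower. Within the last list Pdcd1, an inhibitory receptor that is abundant on follicular helper cells, was at 0.37, 0.25 and 1.27 in BALB/cByJ and at 0.12, 0.17 and -0.26 in BALB/cJ mice (difference 0.62, adjusted p = 0.586), and Cd44, an adhesion receptor of activated T cells, differed by -0.43 (adjusted p = 0.445). T cell genes had a median of 0.137, or 0.019 without immunized BALB/cJ replicate 1. The median of 16 neutrophil genes was -0.198, and it was -0.486 when BALB/cByJ replicate 3 was left out and 0.068 when replicate 1 was.

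Of 57 measured genes that label the clustered heat map of the study, 13 were called higher (0.0934% of all) and 8 lower (0.0715%). By the mean of their probe sets, 29 did not overlap with BALB/cByJ higher (8.96% of all genes) and 12 with BALB/cByJ lower (6.69%). The study chose these labels on the same arrays, so these counts are not independent evidence. No chemokine gene (26, median -0.184) and no heat shock gene (18, -0.143) was called, nor any pigment cell gene (12, -0.161) or adipose gene (9, -0.328), whose medians were 0.042 and 0.061 without immunized BALB/cJ replicate 1. Without overlap of the arrays, 6 chemokine genes were lower (6.69% of all genes) and 1 was higher (8.96%). With the 2 arrays of high Dct left out, 36 of the 54 probe sets were still called.

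**Figure D4:**
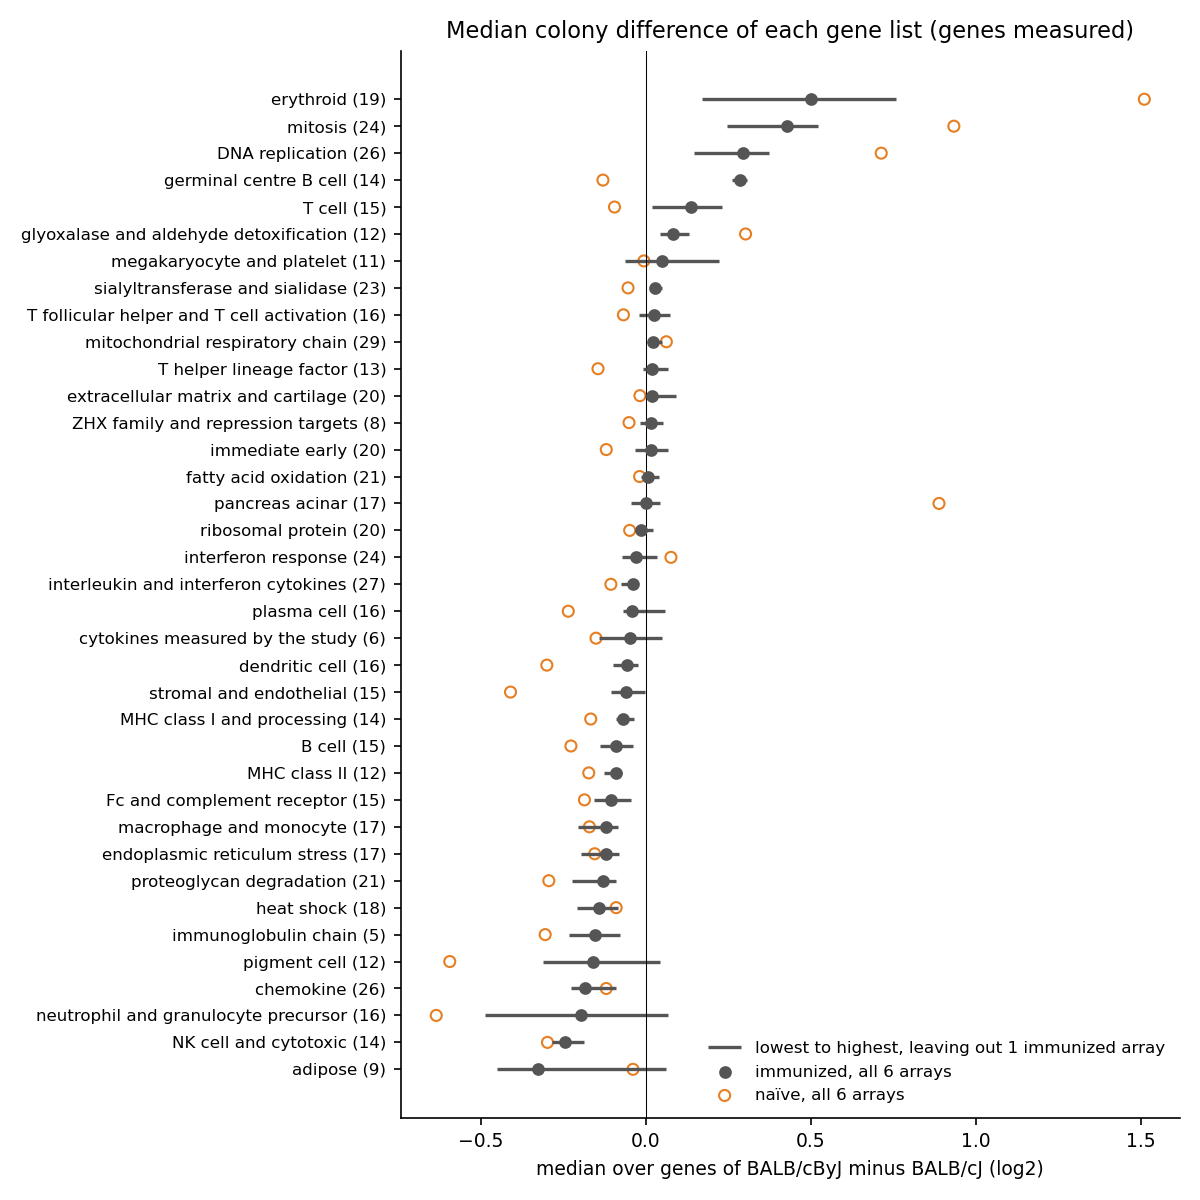
Median over the genes of each list of the difference between the colonies (log2) in immunized mice (filled circles; lines show the range when 1 of the 6 immunized arrays was left out) and in naïve mice (open circles), with the number of genes measured in parentheses. The germinal center list stands at 0.284 with a range of 0.26 to 0.306 and at -0.13 in naïve mice. It was written with earlier results of these data known and includes 3 genes called on these arrays. The 11 genes of it that were not called had a median of 0.243. The erythroid and mitosis lists, at 0.501 and 0.428, have wide ranges and larger naïve medians.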

How the data were processed

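RNA of 12 spleens was hybridized to Affymetrix mouse whole-genome arrays. The authors normalized the arrays by quantiles and summarized probes by median polish (RMA, in GeneSpring), then set each probe set relative to its median on the 12 arrays; these deposited log2 values were used as they stood. The log base was inferred from the 2-fold marks of the study. After 64 controls were left out, limma 3.58.1 (R 4.3.3) was run on 45037 probe sets (1 mean per group, eBayes), with Benjamini-Hochberg adjustment over all of them. The annotation named 1 gene for 34945, several for 932 and none for 9160. A gene of a list was described by the mean of its probe sets in medians and overlaps, and by its probe set of smallest p when named. The gene table of GRCm38.p6 gave names and gene order only.

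The comparison, its 40 gene lists and the rule for named genes were chosen with earlier results of these data known. The rule names any gene with a called probe set, up to 4 members of a list by smallest p and, of cell type lists, the member with the widest range, the 6 cytokines, Qa genes, heat map labels and neighbors in gene order; Cyth1, Erdr1, Gcsam, Bcl6, Fas, Eomes, Hspa1b, Serpina1b, Serpina1c, Mcpt4 and clock genes were chosen after their values were seen. No set test was run. Alternatives were the methods' analysis of variance with Student-Newman-Keuls comparisons, 6 arrays alone, blocks, other normalizations, robust variance, array weights, probe set filters, gene means, a fold of 1.2, an erythroid covariate, and leaving out arrays. The code of the fit was also tested on simulated data. Python 3.11.15 with pandas 2.3.3 and matplotlib 3.10.9 served for tables and plots.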

Additional observations from a re-analysis of the deposited data

Results flagged for a closer look

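In 7 of 195 named probe sets the colonies did not overlap in either state and differed in opposite directions in the 2 states, as did 313 of all 45037 (0.695%). Most named probe sets were chosen by a small p between the immunized colonies, which favors arrays without overlap, so the 2 shares cannot be compared. The value given is the colony difference in immunized minus that in naïve mice (log2). It was 1.01 for Neil1, and 0.94 and 0.85 for a probe set each of Cep55 and S1pr2, which were called between the immunized colonies. It was 0.59 for Cdh5, an endothelial cadherin, 0.55 for Ccl22, a chemokine of dendritic cells, -0.69 for a probe set of the chaperone Hsp90aa1 and 0.39 for the cytokine Lta, none of which was called between the immunized colonies. Tested over all probe sets with limma, the difference between the states had an adjusted p of 0.198 for Neil1 and Cep55, 0.356 for S1pr2, 0.489 for Cdh5 and Ccl22, 0.491 for Hsp90aa1 and 0.505 for Lta.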

How the results depend on the processing

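Of the 54 called probe sets, 28 were called under every one of the 24 alternatives that could be run on them. Many of the alternatives leave the difference itself as it is and change only its test. The number of called probe sets (54) was 88 after quantile normalization, 26 with genes in place of probe sets and 33 when tested against a fold of 1.2; leaving out 1 array gave 40 to 63. With genes in place of probe sets, 10 differed by more than 2-fold (28 probe sets), and leaving out 1 array gave 23 to 31. The number also called in naïve mice (46) was 30 without _s_at, _x_at and _a_at probe sets, 22 with genes, 30 against a fold of 1.2 and 24 with the erythroid covariate, and leaving out 1 array gave 38 to 51. The number called for the difference between the states (0) was 6 with the run of sample numbers as a block and 2 after quantile normalization, and 0 to 10 when 1 array was left out, 10 without immunized BALB/cJ replicate 1. The cause was not tested. The methods' analysis of variance called 71, of which 45 were among the 54.

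Replicate numbers did not pair the immunized arrays: deviations of same-numbered arrays correlated at 0.121, -0.01 and -0.167. With the replicate block, 60 probe sets were called, 26 of them over 2-fold, 46 also in naïve mice, and 0 for the difference between the states.

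Calls of A530047J11Rik, an unnamed probe set, Neu3, S1pr2, Tfpt, Bex6 and the Fam177a probe set were lost under more than 12 alternatives. As signal levels are not known, probe sets near background could not be told from others.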

Other observations

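Genes of the circadian clock, chosen after their values were seen, mostly separated the immunized arrays by the run of sample numbers. Of 23 probe sets of these genes, 19 did not overlap between the runs and 0 between the immunized colonies, whereas 15 did not overlap between the naïve colonies. Dbp, a clock-controlled transcription factor, was at -0.69, -0.86 and -0.70 in the 3 arrays of the early run (BALB/cByJ replicates 1 and 2 and BALB/cJ replicate 1) and at 0.48, 0.82 and 0.87 in those of the late run (BALB/cByJ replicate 3 and BALB/cJ replicates 2 and 3). Its colony difference was -0.68 (adjusted p = 0.69 from limma) in immunized mice. In naïve mice it was at 0.76, 0.99 and 0.82 in BALB/cByJ and at -0.48, -0.62 and -0.51 in BALB/cJ, a difference of 1.39. Hlf, a related transcription factor, was at -0.21, -0.12 and -0.31 in the early and at 0.12, 0.67 and 1.12 in the late run, and differed by 1.36 between the naïve colonies. Hspa1b was likewise higher in every array of the late run, at 1.96, 1.80 and 3.29 against 0.00, -0.19 and 0.44.

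Mast cell protease 4 (Mcpt4), also chosen after its values were seen, was at 1.13, 0.34 and -0.27 in immunized BALB/cByJ and at -0.41, -0.70 and -0.81 in immunized BALB/cJ mice, without overlap and without a call (difference 1.04, adjusted p = 0.702).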
